A study of Mus musculus with 6 samples.

Results

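Cytosolic ribosomal protein genes were described across pancreatic islets of BALB/c mice, measured as total RNA on 6 Illumina mouse bead arrays. The genes were taken by symbol: Rpl or Rps followed by a digit, Rplp followed by a digit, or Rpsa, without pseudogene names and without the Rps6k kinases. The rule found 98 probes for 66 symbols. A probe counted as detected on an array at a detection p under 0.05 and entered if it was detected on 2 arrays or more, and the probe with the highest mean stood for its gene. This left 55 genes of the 10530 named genes with a tested probe, which had 71 of the 16774 tested probes. Of the 55, 32 carry large-subunit (Rpl or Rplp) and 23 small-subunit (Rps) symbols. Of these 55, 5 carry such a symbol but are not standard ribosomal proteins. These are Rps19bp1, which binds Rps19 and regulates the deacetylase SIRT1; Rpl7l1 and Rps27l, relatives of Rpl7 and Rps27; Rpl36al, a copy of Rpl36a; and Rps4l, a transcribed pseudogene in RefSeq.

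The labels name no engineered allele, and every group received an antibody. Mice were injected intraperitoneally 4 times, every other day from 2 weeks of age, with 25 µg (100 µg in all) of a control IgG or of the monoclonal antibody B29, which binds serpin B13, an inhibitor of cysteine proteases. The islets came from mice aged 5 weeks, killed when 2 weeks had passed since the final dose, and were split by diameter into under 100 µm (small), 100 to 200 µm (medium) and over 200 µm (large). Each antibody and class went onto 1 array, so there were 6 groups of 1. The labels do not say how many animals an array holds, or whether the 3 classes of an antibody came from the same animals.

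Each ribosome is built from a small subunit, which reads the mRNA, and a large subunit, which joins the amino acids. Their proteins are made in matched amounts, and in mammals their mRNAs begin with a run of pyrimidines (a terminal oligopyrimidine tract) through which the mTORC1 kinase controls their translation. Islet endocrine cells translate hormone mRNAs at a high rate, and in mice the phosphorylation of Rps6 by S6 kinases bears on the size of beta cells.

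The start-site windows of 6 genes are shown because their values carry the comparisons that follow (the 5 named first), or because it was the steadiest gene (Rps13). Each line gives 60 bases before and 20 bases from the RefSeq start on GRCm38.p6, 5′ to 3′. Capitals mark the longest pyrimidine run that reaches within 5 bases of the start. The windows lie at chr7:141447591-141447670 (Rplp2, plus strand), chr11:114668520-114668599 (Rpl38, plus strand), chr7:4792905-4792984 (Rpl28, plus strand), chr2:26910747-26910826 (Rpl7a, plus strand), chr10:128626487-128626566 (Rps26, minus strand) and chr7:116334171-116334250 (Rps13, minus strand).
Rplp2: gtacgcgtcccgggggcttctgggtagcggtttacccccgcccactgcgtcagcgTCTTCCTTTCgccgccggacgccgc
Rpl38: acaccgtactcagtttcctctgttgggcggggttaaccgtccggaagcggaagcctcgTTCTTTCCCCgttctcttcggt
Rpl28: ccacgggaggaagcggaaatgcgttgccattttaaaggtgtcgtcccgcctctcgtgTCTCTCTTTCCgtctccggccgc
Rpl7a: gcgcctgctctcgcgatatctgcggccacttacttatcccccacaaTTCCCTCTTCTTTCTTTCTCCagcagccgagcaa
Rps26: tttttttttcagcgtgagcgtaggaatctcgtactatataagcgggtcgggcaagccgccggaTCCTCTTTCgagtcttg
Rps13: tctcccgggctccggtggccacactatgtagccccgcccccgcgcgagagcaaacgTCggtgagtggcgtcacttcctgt

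Runs at the start ranged from 2 bases in Rps13 to 21 in Rpl7a among these 6 genes. Only runs within 5 bases of the annotated start were measured, so a short run does not show that an mRNA lacks the tract. The RefSeq table held 55 windows for 46 of the 55 genes. Of these windows, 17 (30.9%) had a run of at least 8 pyrimidines, against 9.38% of all 32841 windows in the table. The letters CTTTC, on either strand within 20 bases of the start, were in 14 windows (25.5%), against 10.2% of all. The letters CCGGAAG, the core of ETS-family binding sites, were on either strand in 21 of the 55 full windows of 300 bases (38.2%), against 8.86% of all. CTTTC can lie inside a pyrimidine run, so these features overlap. Rplp2 (higher in large islets) and Rps26 and Rpl7a (lower in large islets) all had runs of 9 bases or more.

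On the authors' background-corrected, quantile-normalized log2 scale, the 6-array means ran from 4.50 (Rpl21) to 13.24 (Rpl41), with a median of 10.55, and 43 genes had a mean of at least 9, a level that 5.07% of tested probes reach. A probe's brightness depends on its sequence as well as on the transcript, so no order of expression is read from it. Of the 55 genes, 53 were detected on all 6 arrays. Rps15a was detected on 5 and Rpl21 on 2, and both lay near background, at means of 4.67 and 4.50. Just outside the rule was Rpl22l1, a paralog of Rpl22, detected on 1 array with a mean of 4.46. No probe passed the detection rule for 11 symbols (Rpl14, Rpl17, Rpl22l1, Rpl39l, Rpl3l, Rpl6, Rps18, Rps20, Rps23, Rps23rg1 and Rpsa), and these 11 entered no comparison. Another 13 probes that failed the rule belonged to 11 genes with a different, tested probe, among them Rplp2.

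**Figure D1:**
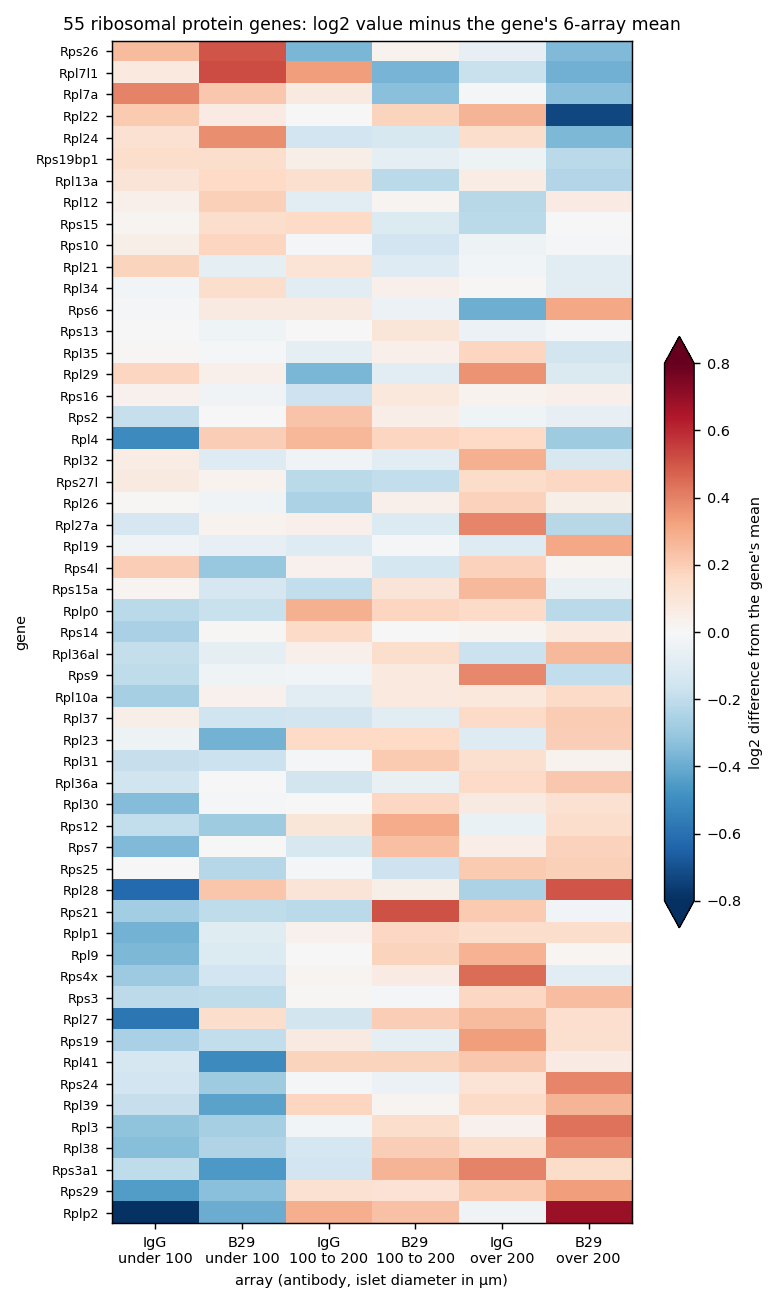
Each row is 1 of the 55 genes, ordered by its difference between large and small islets, and each column 1 array; colour gives the log2 value minus the gene's mean over the 6 arrays (blue lower, red higher). Blue gathers on the arrays of small islets at the bottom, from Rps29 to Rplp2, and red at the top, where Rps26 and Rpl7a lie.

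Over the 6 arrays a gene's values spanned a median of 0.54 log2 units. The median span of all tested probes was 0.48, and that of 367 probes outside these genes with a mean of at least 10 was 0.62; the 37 ribosomal protein genes of that brightness spanned a median of 0.59. The narrowest span belonged to Rps13, a small-subunit protein, with 0.14. Its values were 10.18, 10.18 and 10.13 with IgG and 10.15, 10.27 and 10.16 with B29, in small, medium and large islets. Rpl34 (0.23) and Rps16 (0.25) followed. The widest spans were those of Rplp2 (1.48), a protein of the acidic stalk that recruits elongation factors, Rpl28 (1.12) and Rpl22 (0.997), an RNA-binding protein needed for the development of αβ T cells in mice. Only 2 of the 55 genes, Rplp2 and Rpl28, spanned more than 1. Both were among the 37 with a mean of at least 10, and 15.0% of the other probes of that brightness spanned more than 1.

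Values were lowest most often on the array of small islets with IgG, which held the lowest value of 23 genes. Of all tested probes, 20.5% had their lowest value there. The highest value fell on the array of large islets with B29 in 16 genes and on that of large islets with IgG in 15, where 21.0% and 17.3% of all tested probes had theirs. The median deviation from a gene's own mean was -0.13 in small, 0.00 in medium and 0.14 in large islets with IgG, and -0.03, 0.04 and 0.04 with B29.

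The antibody comparison asks whether B29 altered the islets relative to the control IgG. No ribosomal protein gene passed the test over the 3 diameter classes: limma's moderated test with diameter class as a second factor gave adjusted p-values of 0.966 or more for all 55. Over all tested probes, 0% passed higher and 0.00596% lower with B29. At an unadjusted p under 0.05 there were 2 genes, Rpl28 and Rpl7a, against 4.67% of all tested probes. The median log2 ratio of B29 over IgG was 0.03 (all tested probes 0.00), with 30 genes above and 25 below 0, and 48 genes lay within 0.25 of 0 (86.7% of all tested probes). The standard error of a gene's ratio had a median of 0.14. With 2 residual degrees of freedom these intervals are wide, and a p that missed the threshold does not show that the antibodies acted alike.

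Rpl28, a large-subunit protein, had the highest ratio. It measured 9.81, 10.53 and 10.18 in small, medium and large islets with IgG, and 10.65, 10.48 and 10.93 with B29. B29 was the brighter array in small and large islets and not in medium ones, and the ratio over classes was 0.52 (SE 0.19, adjusted p = 0.966). The next 3 were Rplp2 at 0.35 (SE 0.17), Rpl27 at 0.31 (SE 0.17) and Rps7 at 0.29 (SE 0.13), none of which passed.

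Rpl22 had the lowest ratio, -0.32 (SE 0.21, adjusted p = 0.970). Its values were 7.83, 7.62 and 7.89 with IgG and 7.69, 7.80 and 6.89 with B29. The array of large islets with B29 stood alone, and without that class the ratio was 0.01. Rpl7a, a large-subunit protein, measured 9.85, 9.52 and 9.43 with IgG and 9.66, 9.11 and 9.11 with B29, lower with B29 in all 3 classes (-0.31, SE 0.13, adjusted p = 0.966). Rps4l followed at -0.28 (SE 0.14).

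The 8 genes brighter with B29 in every class were Rpl10a, Rpl12, Rpl3, Rpl30, Rpl36a, Rpl36al, Rpl38 and Rps7; 12.4% of all tested probes did the same. Rps7 showed it with ratios of 0.35, 0.37 and 0.14. The 5 genes dimmer in every class were Rpl21, Rpl32, Rpl7a, Rps25 and Rps4l, against 13% of tested probes.

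**Figure D2:**
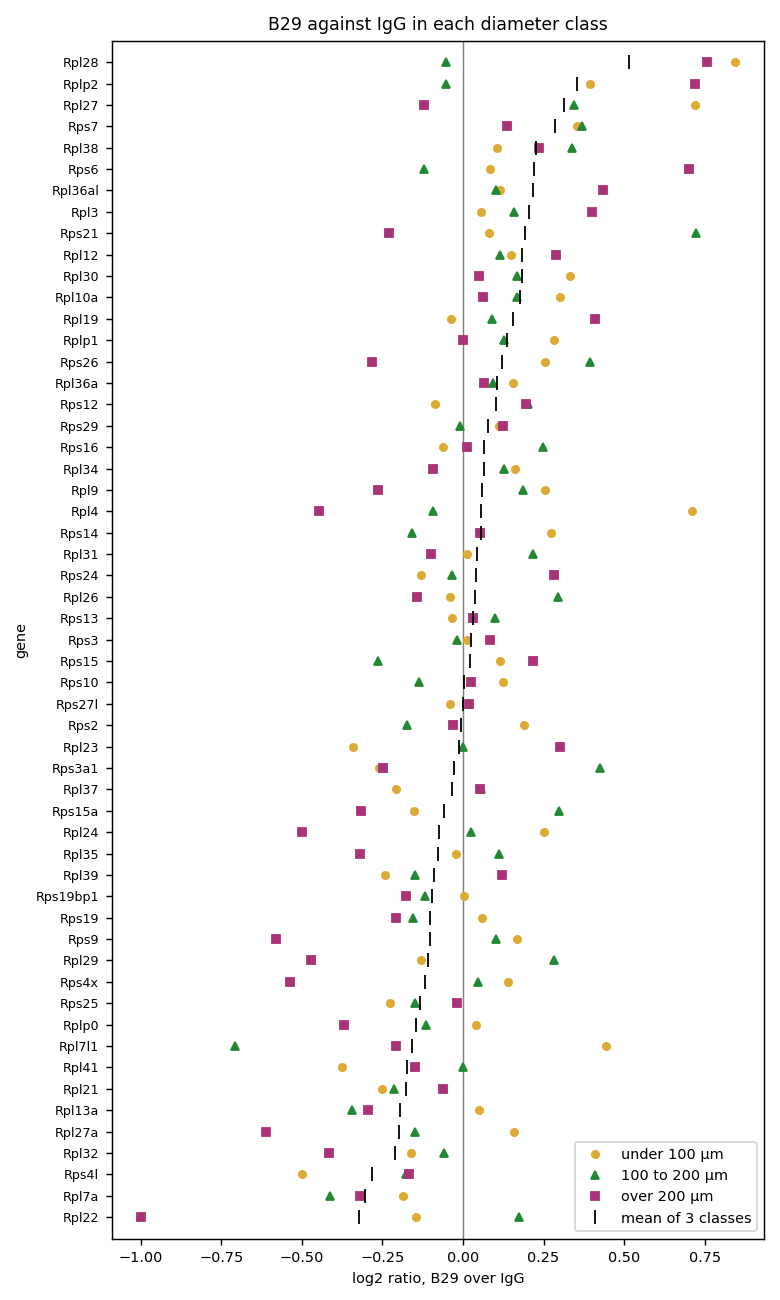
Log2 ratio of B29 over IgG for each of the 55 genes in small (circles), medium (triangles) and large islets (squares), 1 array against 1, with a tick at the mean of the 3. Points of 1 gene often lie on both sides of 0, and Rpl22 in large islets, at -0.997, lies farthest from 0.

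Within a class there was 1 array against 1 and no test, and genes at least 1.5-fold apart were counted. In small islets, 3 genes were brighter with B29: Rpl28 (0.84), Rpl27 (0.72) and Rpl4 (0.71), a protein of the exit tunnel. None was dimmer, and the lowest were Rps4l (-0.50), Rpl41 (-0.38) and Rpl23 (-0.34). Further tested probes of Rpl23 gave 0.14 and 0.19 in small islets. Among all probes detected there, 3.53% were brighter and 2.76% dimmer.

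In medium islets, Rps21, a small-subunit protein, was brighter with B29 (0.72) and Rpl7l1 dimmer (-0.71), against 2.26% and 1.31% of probes. Rps21 measured 11.81 with IgG and 12.54 with B29. Rps3a1 (0.43) and Rps26 (0.39) were next above, and Rpl7a (-0.41) and Rpl13a (-0.34) next below. This B29 array also held an immunoglobulin kappa signal (Igk-C) of 9.28, which lay between 4.56 and 4.95 on the other 5 arrays; its part in these ratios was not tested.

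In large islets, 3 genes were brighter with B29: Rpl28 (0.76), Rplp2 (0.72) and Rps6 (0.70). Rps6, the substrate of S6 kinases, measured 9.89 with IgG and 10.59 with B29, while the 4 arrays of smaller islets lay between 10.23 and 10.35. Rpl22 (-0.997) and Rpl27a (-0.61) were dimmer, but further tested probes of Rpl27a gave 0.0 and -0.0019 on these arrays. The shares of all probes were 2.84% and 3.4%. Those shares are for the authors' scale. After median centring the counts were 0 brighter and 7 dimmer, and the share of all probes under that scaling is not given here. The median ratio of the 55 genes went from -0.03 to -0.25, and that of the other bright probes from 0.03 to -0.20. On the authors' scale the calls were few and fell on different genes by class, except that Rpl28 was called in small and large islets; the difference between classes was not tested.

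The pancreatic acinar genes, which encode digestive enzymes, differed most between these 2 arrays of large islets. Their summed level over 32 tested genes of 36 listed was 53814 with IgG and 8460 with B29 (linear scale), and the median log2 ratio of the list was -3.06. Whether this bears on the ribosomal protein values was not tested.

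Between large and small islets, 26 of the 55 genes lay within 0.25 of 0, as did 71.7% of all tested probes, and no gene passed. The comparison of large with small islets had a lowest adjusted p of 0.133 (limma, antibody as the second factor). Over all tested probes, 0.0954% passed higher and 0.435% lower in large islets. At an unadjusted p under 0.05, 11 genes were higher and 3 lower, together 14 of 55, against 10.4% of all tested probes. The median difference was 0.17, with 41 genes above and 14 below 0; all tested probes had a median of 0.02. Bright probes outside the list had 0.22 and ribosomal protein genes of the same brightness 0.26. Over both antibodies together, the list's median was thus near that of other bright probes.

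The direction of that median did not hold under other scalings. It was -0.01 after cyclic loess and -0.07 after centring each array on its median. The same happened between medium and small islets, where the median of 0.11 became -0.05 and -0.02. In the separate antibodies, the medians for large minus small were 0.23 with IgG and 0.11 with B29 on the authors' scale, 0.00 and -0.02 after cyclic loess, and 0.13 and -0.25 after median centring. Other bright probes had 0.19 and 0.27, -0.01 and 0.13, and 0.13 and -0.11 in the same order. With B29 the median of all 55 genes lay below that of the bright probes outside the list under each of these scalings. Only 37 of the 55 genes had a mean of at least 10, so the sets were not matched for brightness. The difference was not tested.

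**Figure D3:**
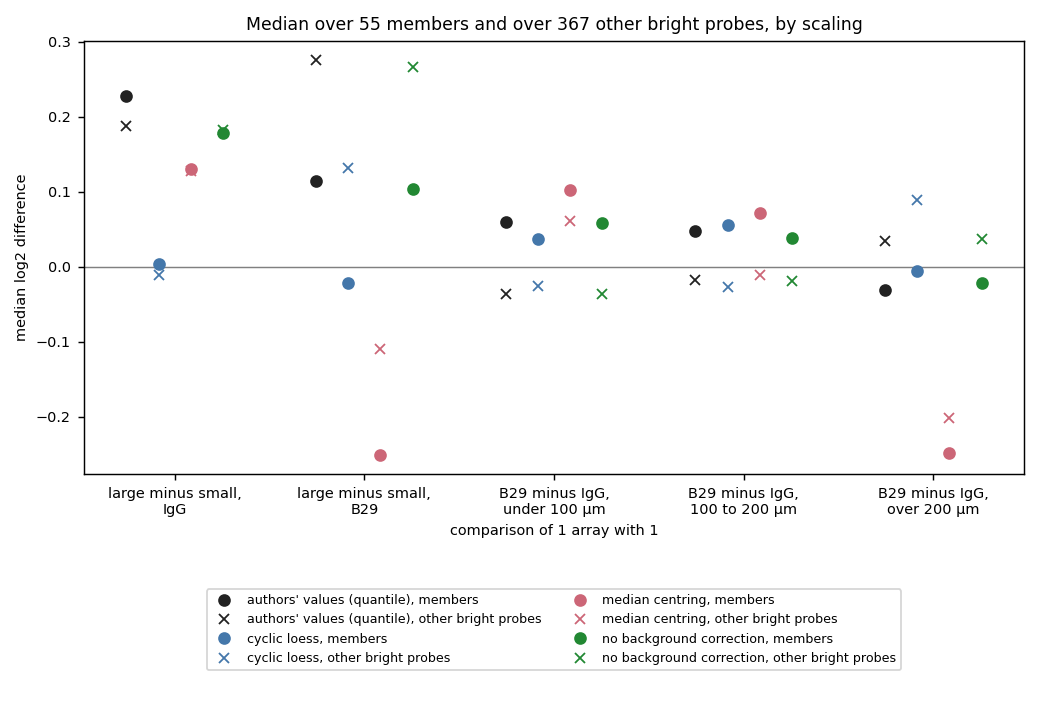
Median log2 difference of the 55 genes (circles) and of 367 other bright probes (crosses) in 5 comparisons of 1 array with 1, under 4 scalings. For large minus small islets with B29, the genes' median runs from 0.11 on the authors' scale to -0.25 after median centring.

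Acinar genes moved with size at the same time. The list's summed level was 207347 and 240130 in small islets (IgG, then B29), 69664 and 95548 in medium, and 53814 and 8460 in large islets. Of its 32 tested genes, 18 passed as lower in large than in small islets, with a median of -4.30. Of the defining acinar markers with a probe, Ptf1a, a transcription factor, was detected on 3 arrays and the others on all 6. The part of acinar genes in the ribosomal values was not tested. In bulk islets, fewer cells of a type and less RNA per cell cannot be told apart. The beta cell hormone gene Ins2 was at the top of the scale on all 6 arrays (13.97 to 14.20), and the alpha cell hormone gene Gcg lay between 13.65 and 13.97. Other islet markers were read for large against small islets. Iapp, a beta cell marker, passed as higher in large than in small islets, by 1.19 (limma, adjusted p = 0.0185). All 18 tested genes of the beta cell list lay above 0, with a median of 0.22, and 1 passed. The median was 0.02 over all tested probes and 0.22 over bright probes outside the ribosomal protein list. Values of the beta cell list under other scalings are not given here. Sst (0.57) and Ppy (0.74), of delta and PP cells, were higher without passing. Of the defining ductal markers, Krt19 and Cftr were detected on no array, and Sox9 on all 6. Sox9 was lower in large than in small islets by -0.60 (SE 0.16) without passing. The 5 tested genes of the ductal list had a median of -0.38, with 1 above 0. Muc1 of that list passed as lower, by -1.90 (limma, adjusted p = 0.0144). The part of ductal genes in the ribosomal values was not tested.

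Rplp2 had the largest size difference. It measured 9.51, 10.59 and 10.27 in small, medium and large islets with IgG, and 9.90, 10.53 and 10.99 with B29. Small islets were lowest with both antibodies, and medium and large islets did not overlap with them. The difference of large from small was 0.92 (SE 0.20, 1.90-fold, adjusted p = 0.133), and of medium from small 0.85 (SE 0.20, adjusted p = 0.354). It was positive under every scaling, 0.88 after cyclic loess and 0.85 after median centring. Without the array of large islets with IgG the difference was 1.20 and the adjusted p 0.0160; this leaves 1 array of large islets, which is assumed to vary like the other groups. Over all alternatives that p ran from 0.0160 to 0.635.

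The partners of Rplp2 in the stalk had 1 tested probe each, and another probe of Rplp0 was detected on no array. Rplp1 was higher in large islets by 0.37 (SE 0.16, adjusted p = 0.472), with values of 12.42, 12.83 and 12.93 with IgG and 12.70, 12.96 and 12.93 with B29; it turned to -0.33 after cyclic loess and -0.42 after median centring. Rplp0, which anchors the stalk, gave 0.17 (SE 0.17) from a dim probe (mean 5.25).

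**Figure D4:**
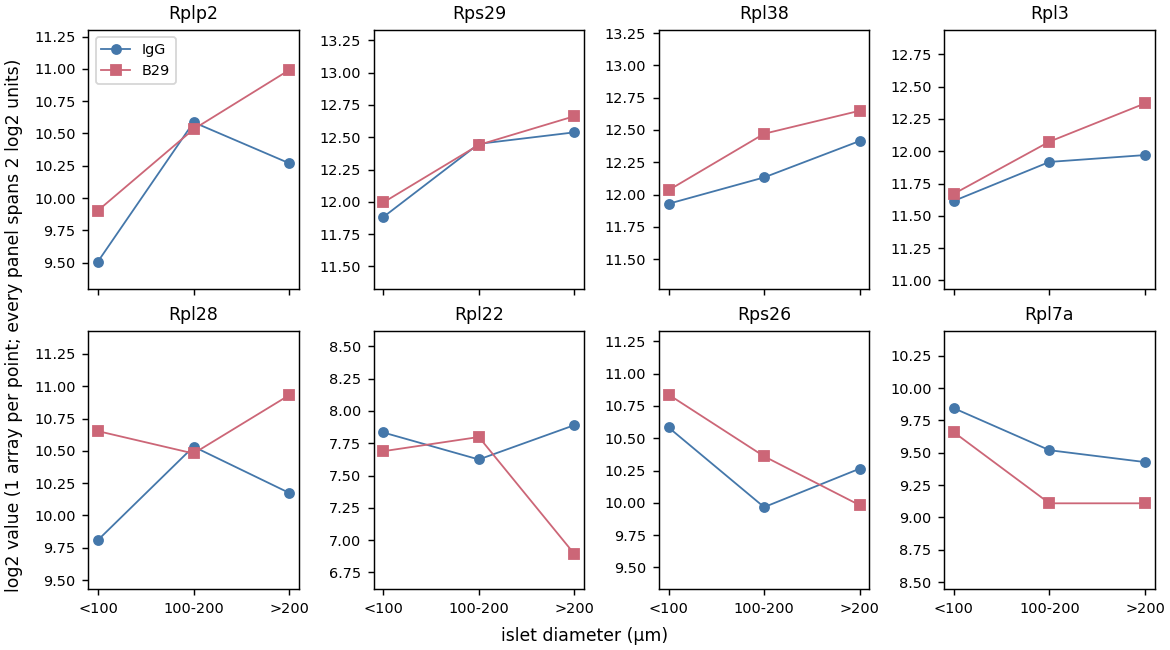
Log2 values of 8 genes by islet diameter, with circles for IgG and squares for B29, 1 array per point; each panel spans 2 log2 units. Rplp2, Rps29, Rpl38 and Rpl3 lie lowest in small islets, Rps26 and Rpl7a highest there, and Rpl22 drops on the array of large islets with B29.

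Among small-subunit proteins, Rps29 was higher in large islets by 0.66 (SE 0.16, adjusted p = 0.158). It measured 11.88, 12.45 and 12.54 with IgG and 12.00, 12.44 and 12.66 with B29. Both antibodies gave nearly the same step (0.66 and 0.67), but it shrank to 0.16 after cyclic loess and 0.08 after median centring. Rps3a1 differed by 0.61 (SE 0.20, adjusted p = 0.343), with 6.08 and 5.82 in small and 6.68 and 6.43 in large islets (IgG, then B29). It kept 0.59 and 0.61 under these scalings. Rps3, which lines the mRNA entry, gave 0.41 (SE 0.16), and 0.39 and 0.37 when rescaled. Rps19, mutated in human Diamond-Blackfan anaemia, gave 0.46, and 0.20 and 0.15 when rescaled.

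Of the large-subunit proteins, Rpl38, which in mice is needed for the translation of Hox mRNAs, differed by 0.55 (SE 0.16, adjusted p = 0.280). It measured 11.93, 12.13 and 12.42 with IgG and 12.03, 12.47 and 12.65 with B29, in the same order with each antibody. This difference went to 0.07 after cyclic loess and to -0.01 after median centring. Rpl3, a protein of the peptidyl transferase centre, gave 0.53 (SE 0.17) and Rpl39, of the exit tunnel, 0.52 (SE 0.17). Rescaled, Rpl39 gave 0.43 and 0.39, while Rpl3 gave 0.19 and 0.12. Rpl41 (0.46) turned to -0.13 and -0.24, and Rps24 (0.47) to 0.03 and -0.05.

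The 3 genes with an unadjusted p under 0.05 in the lower direction kept their sign under each scaling. Rps26, a protein at the mRNA exit that is mutated in some human Diamond-Blackfan anaemia, measured 10.58, 9.97 and 10.27 with IgG and 10.84, 10.36 and 9.98 with B29. It was lower in large islets by -0.59 (SE 0.20, adjusted p = 0.343), and by -0.69 and -0.72 when rescaled. Rpl7a gave -0.48 (SE 0.16, adjusted p = 0.340), and -0.52 and -0.53 when rescaled. Rpl7l1 gave -0.58 (SE 0.25, adjusted p = 0.469), from 6.45 and 6.90 in small to 6.19 and 5.99 in large islets. A second, dimmer probe of Rpl7l1 gave -0.045.

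Both arrays of large islets lay above both of small islets in 25 genes and below in 7. The same held for 21.7% and 17.6% of all tested probes. Those shares cover probes of any brightness, and bright probes outside the list had a median difference of 0.22 on this scale. The share of bright probes, and these counts under other scalings, are not given here. Taken alone, IgG gave 9 genes at least 1.5-fold brighter in large islets and 0 dimmer, where 4.19% and 3.98% of detected probes were so; Rpl27 (0.84), Rplp2 (0.76) and Rps4x (0.74) led. B29 gave 7 brighter and 4 dimmer, against 4.45% and 4.4%. With B29, Rplp2 (1.09), Rpl3 (0.70) and Rpl39 (0.70) led, and Rpl7l1 (-0.91), Rps26 (-0.86), Rpl22 (-0.80) and Rpl24 (-0.73) were the 4 dimmer ones. The second probe of Rpl7l1 gave 0.15 with B29. The brighter genes numbered 4 with IgG and 2 with B29 after cyclic loess, and 5 and 1 after median centring, which gave 8 dimmer genes with B29. The shares above are for the authors' scale. Shares of all probes under the other scalings are not given here, so these rescaled counts have no background beside them. On the authors' scale 3 genes, Rplp2, Rps29 and Rps3a1, passed this fold with both antibodies, against 0.79% of probes detected in both comparisons. Rpl4 differed in sign, with 0.67 under IgG and -0.49 under B29, a contrast that was not tested.

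**Figure D5:**
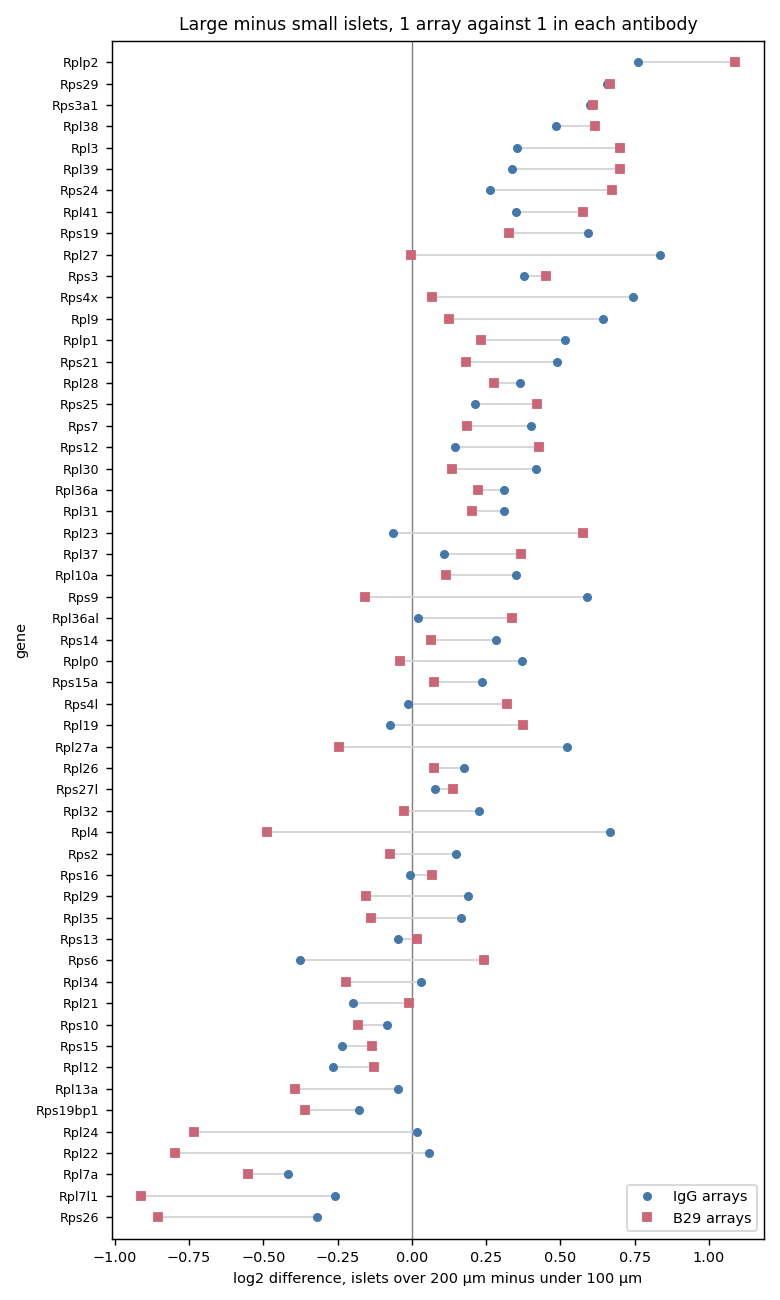
Log2 difference between large and small islets for each of the 55 genes with IgG (circles) and B29 (squares), 1 array against 1, joined by a line. Rplp2, Rps29 and Rps3a1 lie above 0.58 with both antibodies, and Rpl4 and Rpl27a have their points on opposite sides of 0.

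Medium islets held a smaller step. No gene passed against small islets (limma, lowest adjusted p 0.354), where 0% of all tested probes passed higher and 0.0835% lower. At an unadjusted p under 0.05, 6 genes were higher and 2 lower, against 5.96% of probes. The highest were Rplp2 (0.85), Rps29 (0.51) and Rpl41 (0.50), and the lowest Rps26 (-0.55), Rpl7a (-0.44) and Rpl24 (-0.39), a protein at the bridge between the subunits. With IgG alone, 3 genes were at least 1.5-fold brighter and 1 dimmer (3.33% and 3.22% of probes), and with B29 alone 4 and 1 (2.42% and 2.38%).

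Large islets against medium ones gave no gene that passed either (limma, lowest adjusted p 0.985), as 0% of all tested probes did in each direction. At an unadjusted p under 0.05 there was 1 gene, against 4.83% of probes: Rps27l, a paralog of Rps27 that p53 induces, higher in large islets by 0.36 (SE 0.15). It measured 10.67, 10.39 and 10.75 with IgG and 10.63, 10.40 and 10.77 with B29, lowest in medium islets with both. The median was 0.06, and -0.07 after median centring.

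Second probes gave a view of how far 1 probe stands for its gene. In 12 genes there were 16 further tested probes. For large minus small islets, 9 of the 16 had the sign of the probe used, for medium minus small 12, and for B29 over IgG 8. The probe used and the further one differed by a median of 0.21 in the first comparison. Rps3 (0.41 and 0.55), Rps12 (0.29 and 0.37) and Rps9 (0.22 and 0.43) had like signs in 2 probes. Rpl38 did not: its second, dimmer probe gave -0.26 against 0.55. Rps2, with 2 bright probes, gave 0.04 and -0.28. Rplp2, Rps29, Rps26 and Rpl7a had 1 tested probe each, so their differences have no second probe to set beside them. The Rps9 probe used also stands among the array's control rows, with the same values.

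Other genes of translation were read from the same fit, and for B29 over IgG none passed in any list named here. Among 30 tested initiation factors, 1 passed as higher in large than in small islets: Eif3d, the cap-binding subunit of eIF3, by 1.16 (SE 0.17, adjusted p = 0.0301). It measured 8.37, 8.93 and 9.32 with IgG and 8.48, 9.11 and 9.85 with B29, higher in each larger class under both antibodies. The list's median was -0.02, with 14 of 30 above 0. Eif4a2, an RNA helicase of initiation, gave 0.90 (adjusted p = 0.0571).

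None of 11 elongation factors passed. Eef1a1, which brings aminoacyl-tRNA to the ribosome, had the highest difference of the list, 0.77 (SE 0.16, adjusted p = 0.108), and the list's median was -0.12. Among 17 other genes with terminal oligopyrimidine mRNAs, which include Eef1a1, the median was 0.11, with 10 above 0.

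Ribosome assembly was represented by 41 biogenesis genes with a median of 0.03, of which Mybbp1a, a nucleolar Myb-binding protein, was highest at 0.82 (adjusted p = 0.0923). The 10 genes of RNA polymerase I, which transcribes ribosomal RNA, had a median of -0.07. No gene of either list passed.

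In the mTORC1 and S6 kinase list of 23 genes the median was -0.03 and none passed. Eif4ebp1, the translational repressor that mTORC1 inactivates, had the lowest value, -1.12 (adjusted p = 0.0972), and Pdcd4, an inhibitor of the helicase Eif4a1, the highest, 0.69. All 9 tested genes of the p53 list, targets and regulators of the pathway that disturbed ribosome assembly activates, lay below 0 in large islets, with a median of -0.28 and Cdkn1a lowest at -0.61 (adjusted p = 0.219); none passed.

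Mitochondrial ribosomal protein genes, encoded in the nucleus for the separate ribosome of mitochondria, gave 71 tested genes. Their median for large minus small was -0.05, with 31 of 71 above 0, and for B29 over IgG 0.01; none passed. Mrps31 was highest for large minus small (0.61) and Mrpl9 lowest (-0.65). The difference between mitochondrial and cytosolic genes was not tested.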

How the data were processed

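Total RNA of mouse islets was amplified, biotin-labelled and hybridised to Illumina bead arrays, per the labels' protocols. The deposited raw table holds an intensity per probe and array, not normalized, and a detection p-value per probe and array, as the authors deposited them. The authors' value table holds log2 values; limma 3.34.9 is named per the submitters' processing notes, and the steps are not given in the sources used here. Renormalizing the intensities with neqc (offset 16, quantile) in limma 3.58.1 and R 4.3.3 gave values within 0.00037 of the authors' log2 values, which were used.

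Of 45281 probes, 16774 had a detection p under 0.05 on at least 2 of 6 arrays and were tested. The share of probes detected per array was 32.7% to 35.1%. Probe names came from the platform's annotation and a RefSeq table of assembly GRCm38.p6; 35784 probes matched 1 symbol and 9497 none. In 22 rows a word stood in place of a signal, and these were not used.

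One limma fit (lmFit, eBayes) over all tested probes had antibody and diameter class as additive factors (2 residual and 6.60 prior degrees of freedom), with Benjamini-Hochberg adjustment over all of them and a threshold of 0.05. The residual spread of this fit also holds any difference of the antibody ratio between classes, and p-values measure only the spread between these 6 arrays, whose number limits the precision. Single arrays were compared at 1.5-fold without a test, among probes detected on either array. Median centring, cyclic loess, other background corrections, filters and probe choices, and leaving out each array, were alternatives.

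The genes named were the 3 highest and 3 lowest of each comparison, the 3 widest and 3 narrowest over arrays, those with a special role, and for other lists those that passed and up to 2 with the largest differences; others, such as genes with an unadjusted p under 0.05, were chosen after their values were seen. The members, the lists and the tests were chosen with earlier results of these data known. Members and lists are described by counts and medians, without a test of the list.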

Additional observations from a re-analysis of the deposited data

How the results depend on the processing

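No paired analysis was possible because each group has 1 array, so replicate numbers pair nothing; diameter class, within which the antibodies are compared, is already a factor of the fit. Members that passed stayed at 0 in all 4 comparisons under other scalings, background corrections, filters and probe choices; leaving out 1 array gave 0 to 1 for large minus small (1 without large islets of IgG) and 0 to 1 for medium minus small (1 without either array of large islets), in each case Rplp2; a class left with 1 array is then assumed to vary like the others. Medians over the members changed as follows, in sign where the value is negative, and the cause was not tested. Large minus small (0.17) gave -0.014 with cyclic loess, -0.068 with median centring and -0.069 when acinar genes were left out of it, where so few genes can hardly move an array's median. Medium minus small (0.11) gave -0.046, -0.0195 and -0.0197, and 0.17 without the related symbols, an alternative added after the data were seen. Large minus medium (0.06) gave -0.067 with median centring, -0.068 also without acinar genes, and -0.018 to 0.11 with 1 array left out. B29 over IgG (0.03) gave -0.0206 with median centring, -0.0203 also without acinar genes, -0.011 without medium islets, and -0.011 to 0.0575 with 1 array left out.

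With 1 array against 1, cyclic loess changed the count of brighter members in large islets from 9 to 4 with IgG and from 7 to 2 with B29, and median centring to 5 and 1. Dimmer members with B29 went from 4 to 8 with median centring and to 2 without background correction. The medians of 0.23 and 0.11 went to 0.0029 and -0.022 (cyclic loess) and 0.13 and -0.25 (median centring). For B29 over IgG in large islets, median centring moved the median from -0.03 to -0.25, the brighter members from 3 to 0 and the dimmer ones from 2 to 7, and cyclic loess and the mean of a gene's probes gave 1 dimmer. Median centring also moved the median of the other bright probes there, from 0.03 to -0.20. In medium islets the 1 brighter member was 0 with cyclic loess and with median centring, and the 1 dimmer member 0 without background correction and with the mean of a gene's probes. Shares of all probes past 1.5-fold under these alternatives are not given here.

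Of 622 values of named members under alternatives, 599 kept their direction without passing, 3 passed (Rplp2) and 20 changed sign. In large minus small, cyclic loess and then median centring gave -0.33 and -0.42 for Rplp1 and -0.13 and -0.24 for Rpl41; median centring gave -0.046 for Rps24 and -0.0079 for Rpl38; without acinar genes it gave -0.42, -0.24, -0.048 and -0.0094 for these 4. Rpl41 in medium minus small gave -0.12, -0.13 and -0.13. Leaving out 1 array gave Rpl22 -0.57 to 0.0146 for B29 over IgG (0.0146 without the pair of large islets) and -0.83 to 0.19 for large minus medium, where Rpl4 ran from -0.66 to 0.094 and Rpl7l1 from -0.67 to 0.15. The 1.5-fold counts rest on single arrays, and Rpl21 and Rps15a are limited by signals near background.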

Other observations

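Probes named for ribosomal protein pseudogenes, which the rule leaves out, gave 21 tested symbols of 33. Their median was 0.13 for large minus small, with 13 of 21 above 0, and 0.10 for B29 over IgG, with 14 above 0, and none passed in either comparison. Rpl10-ps1 was highest for large minus small (0.40) and Rplp0-ps1 lowest (-0.30). Their median log2 level per array was 9.58 to 9.91.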
